A study of Mus musculus with 98 samples.

Results

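The 43 genes described here carry out or control the cell division cycle. They were chosen by name, with earlier results of these data known, and are 43 of the 23420 gene symbols in the tables. Of them, 18 are genes of DNA replication and S phase, 16 are genes of G2 phase and mitosis (G2/M), 8 are cyclins, kinases and inhibitors that act around G1 phase, and 1 is the tubulin gene Tubb5.

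A dividing cell first licenses its replication origins by loading the MCM helicase, then copies its DNA in S phase and separates the copies in mitosis. Entry into S phase and into mitosis is driven by a cyclin bound to a cyclin-dependent kinase (CDK). The genes of a phase are switched on together, S phase genes largely through E2F factors and G2/M genes largely through the DREAM and MuvB complexes. Innate lymphoid cells (ILCs) are lymphocytes without rearranged antigen receptors that reside in tissues such as the gut, where most of them are at rest and divide slowly to renew themselves.

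The study sequenced the polyA RNA of single ILCs sorted from mouse intestine, to set regenerated cells beside natural ones. R9-ILCs had been regenerated from pluripotent stem cells and were sorted as CD45.2+GFP+Lin-CD127+ cells from Rag2-/-Il2rg-/- recipients at 3 weeks after transplantation; the labels give C57BL/6 as their strain and no age for the recipients. Such recipients lack T, B and NK cells and ILCs of their own and keep myeloid and mast cells. WT-ILCs were sorted as CD45.2+Lin-CD127+ cells from wild-type C57BL/6 mice aged 8 weeks. Of the 67 R9 cells, 32 have titles with no ending (the no-ending series) and 35 have titles that end in 1 (the ending-1 series), and the labels do not say what the ending stands for. The 31 WT columns came to 22 cells once columns with near-equal values were averaged. The labels name no animal for any cell, so each group was treated as 1 sample: no test between groups was made, and the SDs and intervals describe cells and counting error only.

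The 3 sets of cells differed from each other in ways that touch every value below. Levels are in TPM, a length-adjusted share of all the transcripts of a cell that sums to 1e+06 per cell. Il7r, which encodes the sorted marker CD127, was at 1 TPM or more in all 89 cells. Mast cell markers, 9 genes, were summed to between 67.3 and 4659 TPM in the cells of the no-ending series, while their median was 0 in both other sets; Hdc and Ms4a2 were below 1 TPM in all no-ending cells. Epithelial markers, 14 genes, had median sums of 1703, 660 and 51.1 TPM in WT, no-ending and ending-1 cells. A cell had a median of 2092.5, 2082.5 and 2429 genes at 1 TPM or more in that order, with a highest value of 7518, 2989 and 6042. Low values were rare in the no-ending series: a median of 6.91% of the values above 0 in a cell were under 10 TPM there, against 48.7% in WT and 54.6% in ending-1 cells. Many shares are therefore also given at 10 TPM, and a detected share with no limit named is at 1 TPM. The limit of 10 TPM is not neutral either: a cell had a median of 1490.5, 1933.5 and 1594 genes at or above it in WT, no-ending and ending-1 cells. TPM keeps no sequencing depth, and the part of depth, mast cell or epithelial RNA in the differences between sets was not tested. The tables list Gapdh, a gene of glycolysis needed in all cells, at 0 for 9 WT, 24 no-ending and 1 ending-1 cells, so a member listed at 0 is not shown to be off.

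Promoter sequences were searched for the letters of sites tied to the classes named above. The 4 sequences printed here belong to members whose detection differed between the sets. They are the 250 bases before the start of the gene in the RefSeq annotation of GRCm38.p6, the same build as the mm10 of the submitters' processing notes, 5′ to 3′ on the gene's own strand. Capitals mark the letters of a CHR, a CCAAT box or an E2F site, each searched on both strands. A CHR, the element bound by MuvB complexes, was searched as TTTGAA and also in its other form TTTAAA. The CCAAT box was searched by the letters of its name. An E2F site was searched as TTTCCCGC, and in place of that also as TTTGGCGC, or in a further form as TTTCGCGC. The E2F forms can overlap each other, as they do in Mcm6. Ccnb1 (chr13:100786487-100786736, minus strand) and Ccnb2 (chr9:70421555-70421804, minus strand) encode the cyclins that start mitosis, Mcm6 (chr1:128359706-128359955, minus strand) is a helicase subunit, and Pcna (chr2:132253181-132253430, minus strand) is the sliding clamp of the replication fork.
Ccnb1: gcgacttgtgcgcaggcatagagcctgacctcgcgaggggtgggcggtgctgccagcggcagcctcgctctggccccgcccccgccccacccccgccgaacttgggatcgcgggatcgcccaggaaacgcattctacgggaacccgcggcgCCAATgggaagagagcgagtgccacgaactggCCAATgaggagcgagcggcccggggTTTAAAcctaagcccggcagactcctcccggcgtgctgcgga
Ccnb2: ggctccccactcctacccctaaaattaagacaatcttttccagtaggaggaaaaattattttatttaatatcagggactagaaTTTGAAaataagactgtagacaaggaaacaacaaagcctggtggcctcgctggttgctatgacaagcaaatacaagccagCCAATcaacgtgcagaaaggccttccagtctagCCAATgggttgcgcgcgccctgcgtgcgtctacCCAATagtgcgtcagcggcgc
Mcm6: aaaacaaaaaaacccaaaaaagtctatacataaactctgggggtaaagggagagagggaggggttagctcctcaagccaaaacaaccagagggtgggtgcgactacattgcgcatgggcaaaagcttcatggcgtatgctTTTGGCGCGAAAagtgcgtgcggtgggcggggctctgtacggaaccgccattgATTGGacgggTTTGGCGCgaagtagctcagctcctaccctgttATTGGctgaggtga
Pcna: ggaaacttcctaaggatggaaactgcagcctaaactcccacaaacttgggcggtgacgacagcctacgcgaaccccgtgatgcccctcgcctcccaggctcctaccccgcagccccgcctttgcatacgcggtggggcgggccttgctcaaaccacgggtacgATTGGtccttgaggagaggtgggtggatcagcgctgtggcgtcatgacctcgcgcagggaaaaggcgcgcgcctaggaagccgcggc

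Ccnb1 had CHR letters from 42 to 37 bases before the start, below 2 CCAAT boxes that begin 99 and 67 bases before it. Ccnb2 had 3 CCAAT boxes and CHR letters from 167 to 162 bases before the start, with a further match from 5 to 10 bases after it, outside the bases printed. In Mcm6, E2F letters began 110, 106 and 47 bases before the start, and no CHR letters were found in the window. Pcna had 1 CCAAT box, on the other strand, and none of the E2F or CHR letters searched.

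RefSeq promoter windows, here from 250 bases before to 50 after the start, were found for 37 of the 43 members. CHR letters lay in 11 of 13 G2/M windows, 3 of 16 S phase windows and 27.8% of all 27025 windows. E2F letters lay in 8 of 16 S phase windows (Mcm3, Mcm5, Mcm6, Mcm7, Cdc6, Cdt1, Pola1 and Pole4), 1 of 13 G2/M windows (Cdk1) and 1.91% of all windows. A CHR and a CCAAT box stood together in 10 of 13 G2/M windows and in 10.9% of all windows. CHR letters were thus common in G2/M windows and E2F letters in S phase windows; a match of letters is a description and not a bound site.

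Counted per cell, G2/M members were spread evenly through the no-ending series and gathered in a few cells of the other sets. A no-ending cell held between 0 and 6 of the 16 G2/M members at 1 TPM or more, with a median of 3 and a mean of 2.72 ± 1.35 (SD, n = 32 cells). In WT the median was 0 and the mean 1.32 ± 2.71 (SD, n = 22 cells), with 13 cells at 0 and 1 cell at 12. In the ending-1 series the median was also 0 and the mean 0.943 ± 2.36 (SD, n = 35 cells), with 24 cells at 0 and 1 cell at 12. The variance of the count divided by its mean was 0.670 in the no-ending series, 5.59 in WT and 5.92 in the ending-1 series, so the counts of the last 2 sets were carried by few cells. In the same order it was 0.610, 2.98 and 1.70 for S phase members and 0.357, 1.38 and 0.752 for G1 members. For the number of all genes at 1 TPM or more it was 74.6, 838 and 388. The more even counts of the no-ending series were thus not particular to G2/M members.

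**Figure D1:**
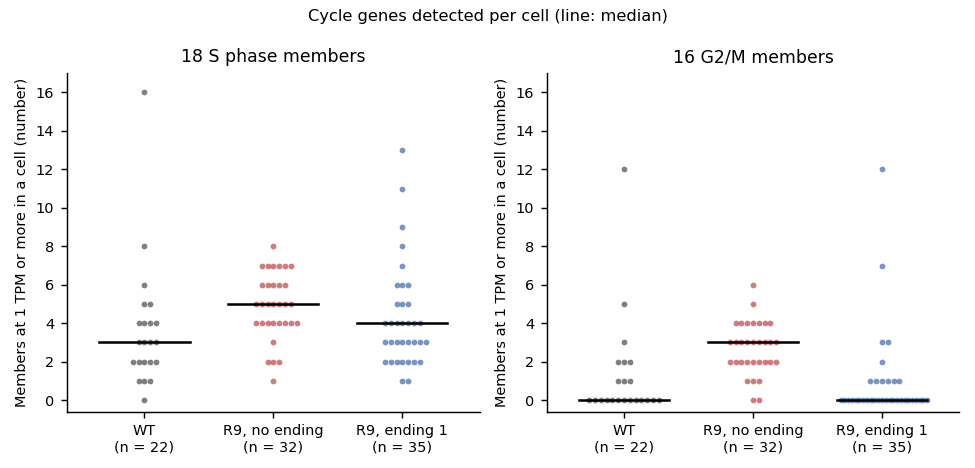
Number of the 18 S phase members (left) and of the 16 G2/M members (right) at 1 TPM or more in each cell; each point is a cell, the line is the median of the set and the vertical axis is a count of genes. The no-ending series lies between 0 and 6 G2/M members with a median of 3, while most WT and ending-1 cells lie at 0 and single cells reach 12.

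At least 3 G2/M members were held by 18 of 32 no-ending cells (56.2%, exact 95% interval 37.7 to 73.6), by 3 of 22 WT cells (13.6%, 2.91 to 34.9) and by 4 of 35 ending-1 cells (11.4%, 3.203 to 26.7). The interval of the no-ending series does not overlap either of the others, which overlap each other. With 10 TPM as the limit, the shares were 13 of 32 (40.6%, 23.7 to 59.4), 3 of 22 (13.6%, 2.91 to 34.9) and 3 of 35 (8.57%, 1.80 to 23.1), and the intervals of the no-ending series and WT then overlapped. At the upper end the order differed: 7 or more G2/M members were held by 1 of 22 WT cells (4.55%), 2 of 35 ending-1 cells (5.71%) and 0 of 32 no-ending cells, where the upper limit of the exact interval is 10.9%.

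S phase members were less unevenly spread. WT cells held a median of 3 of the 18 (mean 3.68 ± 3.31, range 0 to 16), no-ending cells a median of 5 (4.91 ± 1.73, range 1 to 8) and ending-1 cells a median of 4 (4.26 ± 2.69, range 1 to 13). The means differ by less than the spread over cells. At 10 TPM the medians were 2, 4 and 2, beside 1490.5, 1933.5 and 1594 for all genes. Across the cells of a set, the number of S phase and of G2/M members had a Spearman rho of 0.556 in WT (n = 22) and 0.619 in the ending-1 series (n = 35) but -0.108 in the no-ending series (n = 32). The number of G2/M members and the number of all genes at 1 TPM or more in the same cell had a rho of 0.577, 0.638 and 0.287 in that order. The points of each correlation share the library and the depth of a cell.

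The cells at the upper end held many G2/M members at once. WT cell 29 had 12 G2/M and 16 S phase members, with Birc5, an inhibitor of apoptosis that serves in the chromosomal passenger complex, at 650 TPM, Ccnb2 at 378 TPM and Mcm2 at 214 TPM. That cell is the average of 2 columns, so a gene found in 1 of them can count, whereas each R9 cell is 1 column. Ending-1 cell 21 also had 12 G2/M members beside 13 of S phase, with Birc5 at 959 TPM, Ccna2 at 160 TPM and Cdk1, the mitotic kinase, at 124 TPM. Ending-1 cell 42 had 7 G2/M and 11 S phase members and was the only ending-1 cell with Ccne1, the G1/S cyclin, which stood at 192 TPM. These 3 cells thus carry licensing, replication and mitosis genes side by side.

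Other values of these cells moved with their cycle genes. Ending-1 cell 21 had 6042 genes at 1 TPM or more and WT cell 29 had 5261, against set medians of 2429 and 2092.5, and ending-1 cell 42 had 4549. Their epithelial markers were summed to 9347, 20035 and 13196 TPM in that order, and the erythroid markers of ending-1 cell 21 to 40345 TPM; the part of these other cell types in the result was not tested. Without the 6 cells of over 4000 genes, which fall in WT (2) and the ending-1 series (4), the share of ending-1 cells with 3 or more G2/M members was 0. It was also 0 in WT and in the ending-1 series without the cells whose epithelial markers came to 1000 TPM or more, which left 7 WT and 29 ending-1 cells. No no-ending cell had over 4000 genes; its 2 cells with most G2/M members were cell 27, with 6, and cell 21, with 5.

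**Figure D2:**
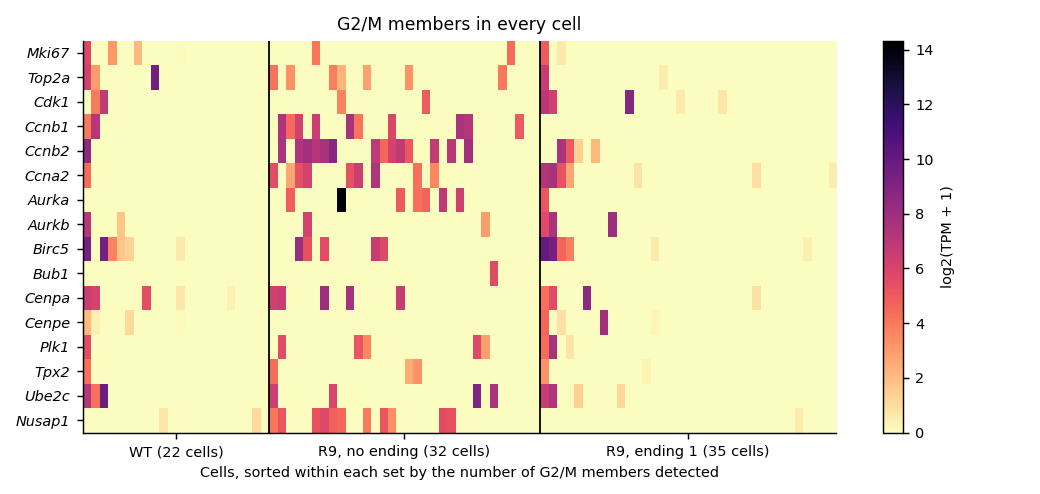
Level of the 16 G2/M members (rows) in each of the 89 cells (columns, sorted within a set by the number of G2/M members detected), as log2(TPM + 1) on the colour scale; vertical lines divide the sets. A few cells at the left of WT and of the ending-1 series hold many members at once, and in the no-ending series most cells hold 2 to 4 members in changing combinations, led by Ccnb2, Nusap1 and Ccnb1.

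Among the genes that load and form the replicative helicase, Mcm6 differed most in detection. Mcm6 was at 1 TPM or more in 2 of 22 WT cells (9.09%, exact 95% interval 1.12 to 29.2), 18 of 32 no-ending cells (56.2%, 37.7 to 73.6) and 10 of 35 ending-1 cells (28.6%, 14.6 to 46.3). Its medians were 0, 22.8 and 0 TPM and its highest values 140, 203 and 731 TPM. The WT and no-ending intervals do not overlap. Mean Mcm6 was 63.4 TPM in all R9 cells against 6.495 TPM in WT, a log2 ratio of 3.10 (of means plus 1 TPM, as for all ratios here) that was 5.57 without the highest cell of each group, and 97.9% of the WT sum came from WT cell 29. At 10 TPM the detected shares were 4.55%, 53.1% and 14.3%.

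Mcm7 was at 1 TPM or more in 7 of 22 WT cells (31.8%, 13.9 to 54.9), 21 of 32 no-ending cells (65.6%, 46.8 to 81.4) and 8 of 35 ending-1 cells (22.9%, 10.4 to 40.1). The no-ending interval stands clear of the ending-1 interval and overlaps that of WT. Its medians were 0, 22.2 and 0.192 TPM and its highest values 301, 255 and 1068 TPM. The mean was 42.4 TPM in the no-ending and 64.2 TPM in the ending-1 series (log2 ratio 0.59), so the series with fewer Mcm7 cells had the higher mean; its ratio was -0.03 without the highest cell of each series. Mcm7 overlaps Ap4m1, which was detected in 0, 2 and 1 cells of the 3 sets.

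The other helicase subunits were sparser. Mcm5 was detected in 9.09%, 31.2% and 11.4% of WT, no-ending and ending-1 cells, Mcm2 in 9.09%, 21.9% and 2.86%, Mcm3 in 9.09%, 18.8% and 20%, and Mcm4 in 27.3%, 28.1% and 17.1%. Levels were carried by single cells: WT cell 29 held 91.3% of the WT sum of Mcm2 and 90.6% of that of Mcm5, and ending-1 cell 23 held 96.8% of the ending-1 sum of Mcm3. The mean ratio of Mcm2 between R9 and WT was -1.18 with all cells and 1.12 without the highest cell of each group. Gins2, a subunit of the active helicase, had a mean ratio of 5.36 that came from no-ending cell 9, at 22532 TPM, and was 2.90 without the highest cells. Cdc6 and Cdt1, which load the helicase, were at 1 TPM or more in at most 2 cells of any set, and in 0 of 32 no-ending cells.

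Pcna and Slbp had the ending-1 series above the no-ending series at 1 TPM. Pcna was at 1 TPM or more in 8 of 22 WT cells (36.4%, 17.2 to 59.3), 11 of 32 no-ending cells (34.4%, 18.6 to 53.2) and 25 of 35 ending-1 cells (71.4%, 53.7 to 85.4). Its medians were 0, 0 and 5.92 TPM, its highest values 342, 578 and 1310 TPM and its means 29.04, 50.03 and 263 TPM. The ending-1 interval is just clear of that of the no-ending series and overlaps that of WT. At 10 TPM the shares were 22.7%, 28.1% and 45.7%, which lie closer together.

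Slbp, which binds the stem loop of replication-dependent histone mRNAs, was among the members detected most often. It was at 1 TPM or more in 72.7%, 68.8% and 94.3% of WT, no-ending and ending-1 cells, with medians of 13.2, 45.6 and 555 TPM and highest values of 1203, 513 and 2041 TPM. At 10 TPM its shares were 54.5%, 62.5% and 62.9%, so the series then differed in level and not in share. Mean Slbp in the ending-1 series was 596 TPM, against 109 TPM in the no-ending series (log2 ratio 2.44, and 2.52 without the highest cells) and 156 TPM in WT (1.93, and 2.38). Single cells did not set this: the highest ending-1 cell held 9.79% of the sum.

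Pole4, a small subunit of DNA polymerase epsilon, was at 1 TPM or more in a like share of each set. It was at 1 TPM or more in 16 of 22 WT cells, 23 of 32 no-ending cells and 25 of 35 ending-1 cells, between 71.4% and 72.7% of each set. At 10 TPM the shares were 54.5%, 71.9% and 37.1%, so this likeness holds at the lower limit only. Its medians were 21.3, 47.9 and 3.10 TPM, but 2 WT cells reached 21205 and 12707 TPM, and the first of them held 54.2% of the WT sum. The mean ratio of R9 to WT was -4.00, and -3.22 without the highest cell of each group. Rpa2, a subunit of the factor that coats single-stranded DNA, was detected in 36.4%, 28.1% and 37.1% of cells, with means of 64.5, 25.9 and 76.7 TPM.

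The remaining S phase members were rare. Tyms, Rrm1 and Rrm2, which supply deoxynucleotides, Ung, which removes uracil from DNA, and Pola1, the catalytic subunit of the polymerase that primes replication, were each detected in 0 to 18.8% of the cells of any set. Rrm1 was the most frequent of them, in 3 of 22, 6 of 32 and 6 of 35 cells. Ung was at 1 TPM or more in 0 of 35 ending-1 cells (upper limit 10.003%).

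**Figure D3:**
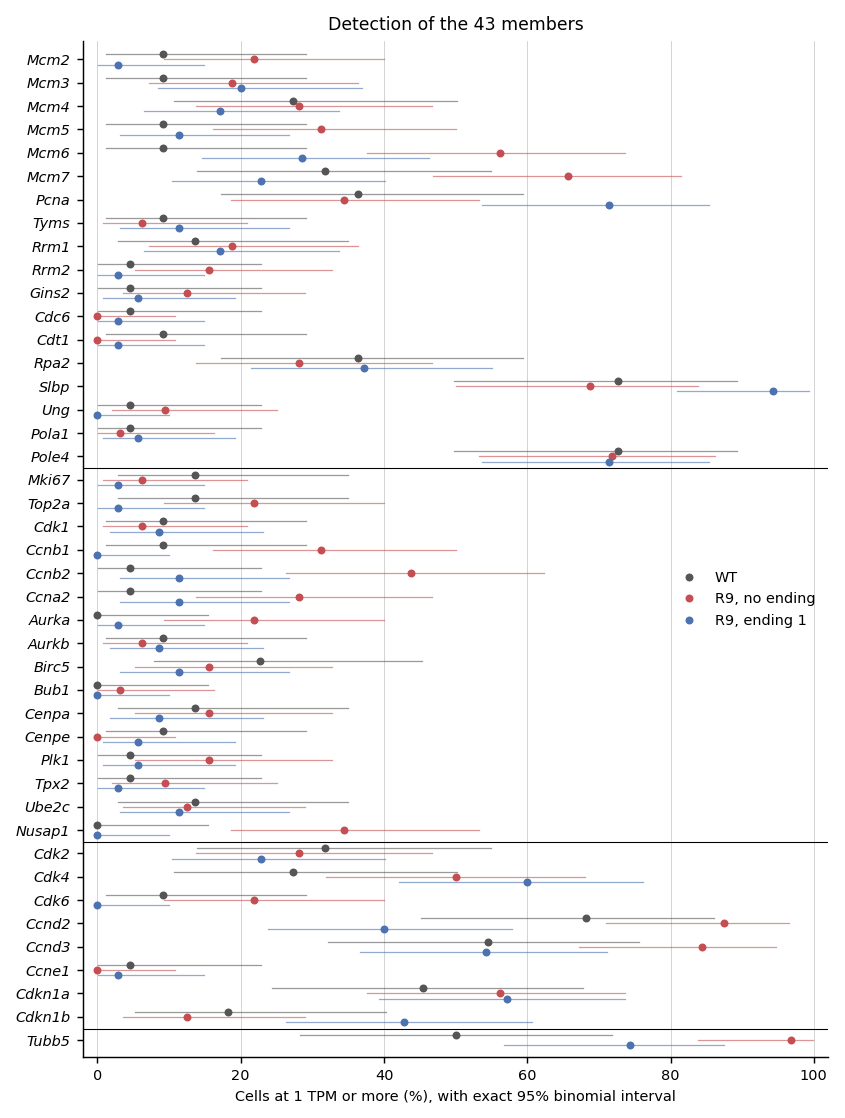
Share of cells at 1 TPM or more for each of the 43 members in WT (22 cells), the no-ending R9 series (32) and the ending-1 series (35), with exact 95% binomial intervals that cover counting error only; horizontal lines divide S phase, G2/M, G1 and tubulin genes. Red points lie to the right for Mcm6, Mcm7, Ccnb1, Ccnb2, Nusap1, Ccnd3 and Tubb5, and blue points for Pcna, Slbp and Cdkn1b.

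Of the G2/M genes, 6 were at 1 TPM or more in 20% or more of no-ending cells: Ccnb1, Ccnb2, Ccna2, Nusap1, Aurka and Top2a. Ccnb2 was at 1 TPM or more in 1 of 22 WT cells (4.55%, exact 95% interval 0.115 to 22.8), 14 of 32 no-ending cells (43.8%, 26.4 to 62.3) and 4 of 35 ending-1 cells (11.4%, 3.203 to 26.7). The 14 no-ending cells were all at 10 TPM or more, 11 of them at 100 TPM or more, and the highest was at 424 TPM. The single WT cell, cell 29, was at 378 TPM, and the highest ending-1 cell at 186 TPM. Ccnb2 was thus as high in that WT cell as in the highest no-ending cells, and the sets differed in how many cells held it.

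Ccnb1 was at 1 TPM or more in 2 of 22 WT cells (9.09%, 1.12 to 29.2), 10 of 32 no-ending cells (31.2%, 16.1 to 50.01) and 0 of 35 ending-1 cells (upper limit 10.003%), where it was listed at 0 throughout. Its highest values were 139 TPM in WT and 193 TPM in the no-ending series. The 10 no-ending cells were all at 10 TPM or more. Within R9 the intervals of the 2 series do not overlap, and the WT interval overlaps both. Between them, the promoters of Ccnb1 and Ccnb2 printed above carry the CHR and CCAAT letters of the G2/M class.

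Nusap1, a microtubule-binding protein of the spindle, was at 1 TPM or more in 11 of 32 no-ending cells (34.4%, 18.6 to 53.2) and in no cell of WT (0 of 22, upper limit 15.4%) or of the ending-1 series (0 of 35, upper limit 10.003%). Its highest value was 52.0 TPM in the no-ending series, 0.934 TPM in WT and 0.440 TPM in the ending-1 series, so it was low throughout. Aurka, a kinase of the spindle poles, was detected in 0 of 22, 7 of 32 and 1 of 35 cells. Its no-ending mean of 651 TPM came almost whole from cell 25, at 20526 TPM, and was 9.63 TPM without that cell. Ccna2, the cyclin of S phase and G2, was detected in 4.55%, 28.1% and 11.4% of cells, with highest values of 20.1, 171 and 210 TPM. These members were taken up here because they reached 20% of no-ending cells, so a higher share in that series follows in part from this choice. Of the 16 G2/M members, 1 reached 20% of cells in WT and 0 in the ending-1 series.

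Mki67, Top2a, Cdk1 and Birc5, often used as markers of dividing cells, were found in few cells of every set. Mki67, which encodes the Ki-67 antigen, was at 1 TPM or more in 3 of 22 WT cells (13.6%, 2.91 to 34.9), 2 of 32 no-ending cells (6.25%, 0.766 to 20.8) and 1 of 35 ending-1 cells (2.86%, 0.0723 to 14.9), with highest values of 55.6, 20.4 and 30.2 TPM. Top2a, the topoisomerase that untangles chromosomes, was in 13.6%, 21.9% and 2.86% of cells and at 10 TPM or more in 2, 3 and 1 cells; its WT mean of 36.5 TPM was 3.68 TPM without WT cell 24, at 725 TPM. Cdk1 was in 9.09%, 6.25% and 8.57% of cells. Their intervals, which cover counting error only, overlap in all 3 sets, and no test between the sets was made. Birc5 was in 22.7%, 15.6% and 11.4% of cells, with overlapping intervals and highest values of 678, 282 and 959 TPM.

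The other 7 G2/M genes were each found in at most 15.6% of the cells of any set. They are Aurkb and Plk1, mitotic kinases, Bub1 of the spindle checkpoint, Cenpa and Cenpe of the centromere, Tpx2, which activates Aurka, and Ube2c, the ubiquitin-conjugating enzyme of the anaphase-promoting complex. Bub1 was at 1 TPM or more in 1 of all 89 cells, a no-ending cell, and Cenpe in 0 of 32 no-ending cells. Among all 16 G2/M members the median detected share was 9.09% in WT, 15.6% in the no-ending series and 5.71% in the ending-1 series.

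The G1 genes were more widely detected than those of mitosis, with Ccnd2 and Ccnd3, D-type cyclins of lymphocytes, in front. Ccnd2 was at 1 TPM or more in 15 of 22 WT cells (68.2%, exact 95% interval 45.1 to 86.1), 28 of 32 no-ending cells (87.5%, 71.0 to 96.5) and 14 of 35 ending-1 cells (40%, 23.9 to 57.9), with medians of 3.197, 39.04 and 0.962 TPM. Its means were 68.0, 59.3 and 36.3 TPM and its highest values 561, 381 and 345 TPM. Many ending-1 cells lie just under 1 TPM; at 10 TPM the shares were 40.9%, 78.1% and 22.9%, in the same order.

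Ccnd3 was detected in 54.5%, 84.4% and 54.3% of cells, with medians of 2.27, 116 and 1.32 TPM. At 10 TPM its shares were 40.9%, 84.4% and 25.7%. The means of 108, 179 and 183 TPM place both R9 series level, since the ending-1 cells that held Ccnd3 reached up to 1414 TPM. A higher share of cells and a higher mean were thus not the same thing for this gene.

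Cdk4, the kinase partner of the D-type cyclins, was at 1 TPM or more in 6 of 22 WT cells (27.3%), 16 of 32 no-ending cells (50%) and 21 of 35 ending-1 cells (60.0%), with overlapping intervals, and at 10 TPM in 22.7%, 50% and 42.9%. WT cell 7 stood at 103642 TPM and held 98.8% of the WT sum; Tspan31, which overlaps Cdk4, was at 82.2 TPM in that cell. The mean ratio of R9 to WT was therefore -4.78 with all cells and 1.36 without the highest cell of each group. Cdk6, the related kinase, was in 9.09%, 21.9% and 0% of cells, where 0 of 35 ending-1 cells allows up to 10.003%. Cdk2, the kinase of the G1/S step, was in 31.8%, 28.1% and 22.9%. Ccne1, its cyclin, was in 1, 0 and 1 cells.

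The CDK inhibitors differed from each other. Cdkn1a, which encodes p21, was at 1 TPM or more in 45.5%, 56.2% and 57.1% of WT, no-ending and ending-1 cells, with medians of 0.456, 16.9 and 1.07 TPM and highest values of 598, 225 and 3467 TPM; at 10 TPM its shares were 31.8%, 53.1% and 37.1%. Cdkn1b, which encodes p27, was in 4 of 22 (18.2%, 5.19 to 40.3), 4 of 32 (12.5%, 3.51 to 28.99) and 15 of 35 cells (42.9%, 26.3 to 60.6); its highest values were 21.04, 165 and 269 TPM. These intervals overlap, and at 10 TPM the shares of Cdkn1b were 9.09%, 9.38% and 20%. The mean ratio of Cdkn1a within R9, ending 1 over no ending, was 2.34, and 1.86 without the highest cells.

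**Figure D4:**
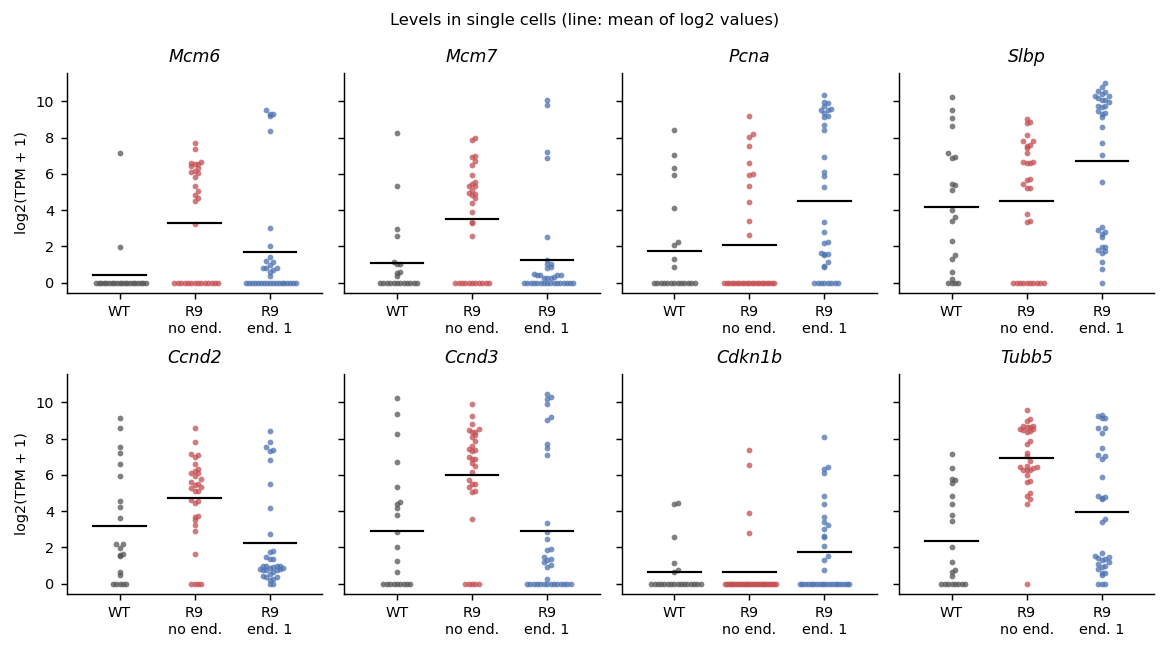
Levels of 8 members in each cell as log2(TPM + 1); points are cells and the line is the mean of the log2 values of the set. Most no-ending values that are not 0 lie above 2 on this scale, while ending-1 cells hold a low group and a high group in Slbp, Pcna, Ccnd2 and Tubb5.

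Tubb5, a beta-tubulin whose level follows growth and division, was detected in a larger share of no-ending cells than any other member. It was at 1 TPM or more in 11 of 22 WT cells (50%, exact 95% interval 28.2 to 71.8), 31 of 32 no-ending cells (96.9%, 83.8 to 99.9) and 26 of 35 ending-1 cells (74.3%, 56.7 to 87.5). Its medians were 1.01, 118 and 9.56 TPM and its highest values 141, 772 and 631 TPM. At 10 TPM the shares were 36.4%, 96.9% and 48.6%. Mean Tubb5 was 165 TPM in R9 and 20.5 TPM in WT, a log2 ratio of 2.95 that was 3.32 without the highest cell of each group; the ratio was 3.33 for the no-ending series and 2.49 for the ending-1 series. The direction was the same in both series, and no cell held over 31.4% of the sum of a set.

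Counted over the members, R9 against WT is read beside all genes. Of the 40 members whose mean reached 1 TPM in R9 or WT, 19 had a log2 ratio of 1 or more, where 43% of the 10691 genes so measured did, and 7 had -1 or less, where 21.3% did. The median ratio was 0.98 for the members and 0.62 for all genes. The members' share is near that of all genes. By detection, Mcm6, Ccnb2, Cdk4 and Tubb5 were each at 1 TPM or more in a share of R9 cells at least 20 percentage points above WT, 4 of 17 members with 20% or more in either group, where 7.82% of such genes were; no member was lower by as much, where 5.41% were. With 10 TPM as the limit, Ccnb2 was less than 20 points above WT and Mcm7 was above by more.

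The series stood apart in these counts. In the no-ending series 11 of 23 members had a detected share at least 20 points above WT (Mcm5, Mcm6, Mcm7, Ccnb1, Ccnb2, Ccna2, Aurka, Nusap1, Cdk4, Ccnd3 and Tubb5), where 11% of all genes had, and none was lower by as much, where 19.2% were. In the ending-1 series 5 of 16 were higher (Pcna, Slbp, Cdk4, Cdkn1b and Tubb5), where 20.8% were, and Ccnd2 was lower, where 4.71% were. With 10 TPM as the limit, the shares of Slbp, Cdkn1b and Tubb5 in the ending-1 series were less than 20 points above WT, and that of Ccnd2 less than 20 points below. Both comparisons use the same WT cells. By mean ratio against WT, 17 of 39 members were higher in the no-ending series, where 26.6% were, and 11 lower, where 44.5% were; in the ending-1 series 17 of 38 were higher, where 48.8% were, and 10 lower, where 20.4% were.

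Within R9, the share of members that were higher in the ending-1 series was below that of all genes. Of 24 members, Pcna, Slbp and Cdkn1b were higher by 20 points or more in the ending-1 series, where 32.6% of all genes were, and 9 were lower (Mcm6, Mcm7, Ccnb1, Ccnb2, Nusap1, Cdk6, Ccnd2, Ccnd3 and Tubb5), where 9.33% were. With 10 TPM as the limit, the share of Pcna, Slbp, Cdkn1b and Cdk6 cells in the 2 series differed by less than 20 points, and Mcm5 and Pole4 were also lower by that much in the ending-1 series. By mean ratio, 15 of 41 members were higher in the ending-1 series, where 64.9% of genes were, and 10 were lower, where 16.1% were. The median ratio was 0.30 for the members against 1.61 for all genes. By role it was 1.08 for S phase members, -0.52 for G2/M members and 0.87 for G1 members, and without the highest cells 0.81, -1.03 and 0.35, where all genes stood at 1.00. The 20-point limit was chosen after values were seen.

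**Figure D5:**
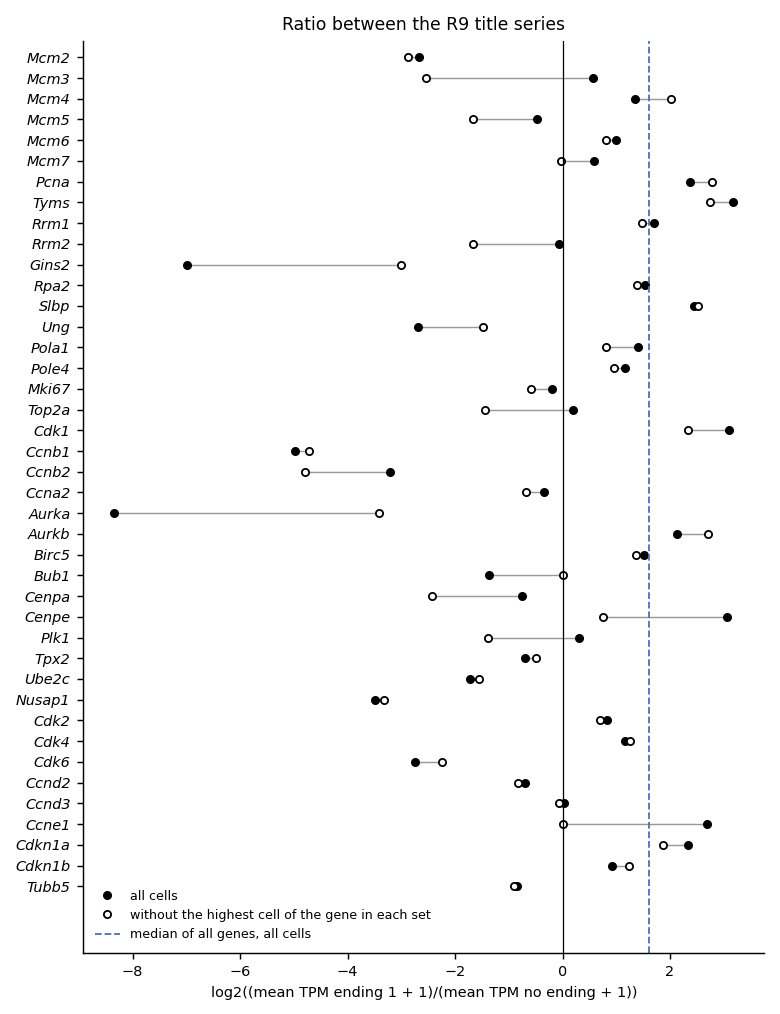
Log2 ratio of mean TPM plus 1 between the ending-1 and no-ending R9 series for the 41 members whose mean reached 1 TPM in at least 1 series; filled points use all cells and open points leave out the highest cell of the gene in each series. The dashed line is the median of all genes at 1.61; Ccnb1, Ccnb2, Nusap1 and Aurka lie far to its left, and Gins2 and Aurka move most when their highest cell is left out.

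Single cells carried much of the level of these genes. In WT, 36 of the 43 members had 50% or more of their summed TPM in 1 cell, against 14 in the no-ending series and 24 in the ending-1 series. WT cell 29 held the highest WT value of 19 members, and ending-1 cells 21 and 42 each held the highest value of 8 members in their series. The members at 1 TPM or more in at least 50% of cells in every set were Slbp, Pole4, Ccnd3 and Tubb5. Of the 43 members, 14 overlap another gene in RefSeq and the strand setting of the counting is not given in the sources used here, so reads of such pairs cannot be told apart. Tyms has a processed copy in the tables and Tubb5 belongs to a family of near-identical genes, so their values are uncertain to that extent.

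Beyond the members, other genes of the same phases were counted in the same cells. Of 38 further G2/M genes, WT cells held a median of 4 (range 1 to 22), no-ending cells 7.5 (4 to 12) and ending-1 cells 5 (1 to 28), and WT cell 29 and ending-1 cell 21 were again the highest of their sets. Over all 89 cells, those detected most often were Hmgb2, a chromatin protein of dividing cells, and Smc4, a condensin subunit. Hmgb2 was at 1 TPM or more in 50%, 93.8% and 94.3% of WT, no-ending and ending-1 cells, with means of 70.3, 113 and 238 TPM. Smc4 was in 59.1%, 96.9% and 85.7%, with means of 19.7, 45.7 and 144 TPM. Both had a higher mean in each R9 series than in WT, whereas Tubb4b, another tubulin, had a higher mean in WT (779 TPM, against 109 and 142 TPM). Cks2, a CDK-binding protein, was in 9.09%, 12.5% and 34.3% of cells. Of the 32 measured genes of this list, 17 were higher and 6 lower in R9 than in WT by a ratio of 1 or more in size, near the 43% and 21.3% of all genes.

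Of 28 further S phase genes, cells held medians of 2.5, 5 and 3 in WT, the no-ending and the ending-1 series. Rfc2, a clamp loader subunit, was in 59.1%, 65.6% and 71.4% of cells, and Fen1, the flap nuclease, in 27.3%, 37.5% and 31.4%. Hells, a chromatin remodeller, was in 9.09%, 18.8% and 37.1%. Of the 21 measured genes of this list 9 were higher and 2 lower in R9 than in WT, where 43% and 21.3% of all genes were. These shares follow no single order of the sets.

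Genes of replication functions were higher in the ending-1 than in the no-ending series about as often as all genes, of which 64.9% were. Some of them, such as Cdc45, also stand in the S phase list above and are counted in both. The G1/S list below likewise shares Ccne2 with it. Among 17 replicative polymerase and clamp loader genes, 10 of 16 measured were higher in the ending-1 series, and 3 lower. Pold2, a subunit of polymerase delta, was in 40.9%, 25% and 54.3% of WT, no-ending and ending-1 cells, with means of 38.8, 25.7 and 152 TPM. Pold4, of the same enzyme, was in 31.8%, 18.8% and 31.4%, with means of 4.35, 12.1 and 111 TPM, and Rfc1, the large clamp loader subunit, in 36.4%, 34.4% and 22.9%. Among 16 origin licensing genes, 8 of 12 measured were higher in the ending-1 series and 2 lower; Orc4, of the origin recognition complex, had means of 18.5, 18.8 and 94.2 TPM and Gins4 of 93.0, 44.0 and 61.0 TPM.

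Among 15 genes of nucleotide supply, 5 of 14 measured were higher and 2 lower in R9 than in WT, beside 43% and 21.3% of all genes. Samhd1, which breaks down deoxynucleotides, was in 54.5%, 71.9% and 82.9% of WT, no-ending and ending-1 cells. Its mean ratio of R9 to WT was -0.78 with all cells and 1.91 without the highest ones. Paics, of purine synthesis, was in 54.5%, 50% and 68.6%, and Umps, of pyrimidine synthesis, in 18.2%, 37.5% and 5.71%. At 10 TPM Samhd1 was in 31.8%, 68.8% and 51.4% and Umps in 4.55%, 34.4% and 2.86%, with the no-ending series highest for both. The median number of all genes per cell at that limit was also highest in the no-ending series.

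Of 22 further G1/S genes, 6 of 19 measured were higher and 9 lower in R9 than in WT, beside 43% and 21.3% of all genes. The median ratio of the list was -0.25 with all cells but 1.48 without the highest cell of each gene. All genes stood at 0.62 and 0.88. By detection, 11 of the 22 were in a larger share of R9 than of WT cells and 11 in a smaller share. The larger share of lower genes is therefore not read as a result about this list. Rbl2, a pocket protein that holds E2F genes silent in resting cells, was in 27.3%, 53.1% and 54.3% of cells, with means of 20.7, 32.3 and 112 TPM. Ccnd1, the D-type cyclin of epithelial and other cells, was in 27.3%, 9.38% and 11.4%, with means of 26.6, 0.838 and 8.38 TPM. Lin37, a MuvB subunit, was in 45.5%, 31.2% and 40%, and Cdk7, the CDK-activating kinase, in 18.2%, 34.4% and 31.4%. Rbl2 had a higher and Ccnd1 a lower mean in each R9 series than in WT. The epithelial marker sums were highest in WT by their median but in the no-ending series by their mean (41533 TPM, against 26457 TPM in WT and 1427 TPM in the ending-1 series); the part of epithelial RNA in the Ccnd1 values was not tested.

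Genes that restrain division were counted in the same way. Among 18 inhibitors and antiproliferative genes, 10 of 16 measured were higher and 2 lower in R9 than in WT, where 43% and 21.3% of all genes were. Between the ending-1 and the no-ending series 12 of 17 were higher and 4 lower, near the 64.9% and 16.1% of all genes. The summed level of the list had a median of 338, 258 and 1072 TPM in WT, no-ending and ending-1 cells, and its highest value was 92022 TPM in a no-ending cell. Btg1 was at 1 TPM or more in 22 of 22, 31 of 32 and 35 of 35 cells, with means of 150, 128 and 470 TPM. Trp53 was in 50%, 50% and 82.9% of cells, with means of 76.4, 57.5 and 437 TPM. Cdkn2d, which encodes the CDK4 and CDK6 inhibitor p19, was in 13.6%, 21.9% and 51.4%, with means of 2.94, 36.1 and 106 TPM. The shares at 10 TPM were 40.9%, 50% and 54.3% for Trp53 and 9.09%, 18.8% and 20% for Cdkn2d, so the series lay close together. Cdkn2a, an inhibitor of the same family, was below 1 TPM in every cell.

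Of 17 genes of the anaphase-promoting complex, cells held medians of 3.5, 4 and 6 in WT, the no-ending and the ending-1 series. Ube2s, an enzyme that extends its ubiquitin chains, was in 54.5%, 50% and 80% of cells, and the subunit Cdc26 in 40.9%, 37.5% and 71.4%. Fzr1, the activator of the complex in G1 phase, was in 1 of 22, 6 of 32 and 12 of 35 cells, and the subunit Cdc16 in 18.2%, 34.4% and 25.7%. Among 11 further tubulins, Tuba1b was in 81.8%, 100% and 85.7% of cells with means of 215, 213 and 316 TPM, Tuba1c in 77.3%, 87.5% and 65.7%, and Tubb6 in 22.7%, 9.38% and 20%. The mean ratio of Tuba1b between R9 and WT was 0.31, against 2.95 for Tubb5.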

How the data were processed

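PolyA RNA of single mouse intestinal ILCs went through whole-transcriptome amplification (Discover-sc WTA Kit V2) and TruePrep library preparation, per the labels' protocols. The authors deposited TPM for 23420 gene symbols in 2 tables, 1 for R9 and 1 for WT, with 98 columns in all, each summing to 1e+06. Per the submitters' processing notes StringTie 1.3.4, HISAT2 2.1.0, bcl2fastq and SAMtools 0.1.19 were used with the build mm10; the annotation is not given in the sources used here. TPM keeps no depth, so sequencing depth is unknown and genes at 1 TPM or more were counted in each cell.

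WT columns whose log2(TPM + 1) values had a Pearson r of over 0.8 (genes at 1 TPM or more in both) were averaged as 1 cell (joined pairs 0.844 to 0.995, highest other pair 0.754). Joined pairs shared 24.0% to 92.2% of the genes detected in either column, so that they are 1 cell is an assumption. It left 22 WT cells, 8 from several columns; 1 WT column has no title ending and was used as WT only.

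A member was detected at 1 TPM or more. Shares carry exact Clopper-Pearson 95% intervals (counting error only). Ratios are log2((mean TPM + 1)/(mean TPM + 1)) over genes whose mean reached 1 TPM in at least 1 of the groups, called at a size of 1; they understate low genes, and R9 over WT compares tables normalized separately. Each group is 1 sample, so no test was made. Members in 20% or more of the cells of any set, and Mki67, Top2a, Cdk1 and Pcna, are given in full, the others by counts and ranges. From each other cycle list, the text names the 2 genes detected in the largest share of cells and the 2 with the largest ratio of R9 to WT in size among those in 20% or more of the cells of the higher group. A gene that this rule names and a cell type marker are not reported here. The members, lists and rule were chosen with earlier results of these data known. Other genes named beside them were chosen after their values were seen. No doublet caller was run; an alternative leaves out cells of over 4000 genes.

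Alternatives varied the detection limit, pseudocount, kind of mean, scaling, joining of WT columns, the WT title ending and the cells left out. The calculation was tested on simulated data. Calculations ran in Python 3.11.15 with pandas 2.3.3, matplotlib 3.10.9, scipy 1.17.1 and numpy 2.4.6. Gene positions and promoter windows are from RefSeq (GRCm38.p6), matched by symbol; the first window of each gene was used.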

Additional observations from a re-analysis of the deposited data

How the results depend on the processing

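TPM keeps no depth, the sets differ in how many low values they hold, and 22 to 35 cells a set limit every share. With 10 TPM as the limit, the mean counts per cell of S phase and of G2/M members kept their order of sets. The order of the shares of cells changed at that limit for some members, among them Pcna, Slbp and Cdk4. The share of cells with 3 or more G2/M members was 0 in WT without cells whose epithelial markers came to 1000 TPM or more, and 0 in the ending-1 series without those cells or without cells of over 4000 genes. Of R9 over WT, 19 members were higher; 11 were with a pseudocount of 10 TPM and 9 with a difference of mean log2(TPM + 1). The 7 lower were 1 by that difference and 2 without the highest cell of each gene. Of ending 1 over no ending, the 15 higher were 3 by the difference of mean log2 values, and the 10 lower were 6 with a pseudocount of 10 TPM, 19 without cells of over 4000 genes and 18 without epithelial-marker cells. The share of all genes called can change with an alternative too and is not given here. These counts are therefore not read as a result about the members.

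Some single ratios turned, and the cause was not tested beyond what each alternative leaves out. For R9 over WT, by the difference of mean log2 values Mcm2 stood at 0.036, Cdk4 at 1.51 and Ccne1 at -0.022. Without the highest cell of each gene, Mcm2 stood at 1.12, Ube2c at 0.15, Cdk4 at 1.36 and Cdk6 at 0.45. Without cells of over 4000 genes Mcm2 was at 2.37. Without epithelial-marker cells Mcm2 was at 2.40, Top2a at 1.32, Ube2c at 4.26 and Cdk4 at 0.34. Without cells in which 1 gene holds 10% or more of all TPM, Gins2 was at -0.17 and Cdk4 at 1.39. With WT columns of title ending 1 only, Cdk4 was at 2.98 and Cdk6 at 0.011. For ending 1 over no ending, the difference of mean log2 values gave -0.29 for Mcm4, -0.55 for Pole4 and -0.16 for Birc5. Birc5 was at -4.06 without cells of over 4000 genes and at -3.03 without epithelial-marker cells, and Ube2c was at 3.13 without cells in which 1 gene holds 10% or more. The alternative without cells in which 1 gene holds 10% or more left 17 WT, 6 no-ending and 34 ending-1 cells. No paired analysis was possible because each group is 1 sample and no test was made.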
